A study of Mus musculus with 23 samples.

Results

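Enzymes and proteins that write, remove or read marks on histones and DNA, or that move and assemble nucleosomes, were followed in the mouse cortex after systemic LPS and after dox given in early life. The 40 genes had been named as chromatin modifiers and remodellers by their known function, with earlier results of these data known, and 39 of them were measured among the 770 genes of the nCounter Mouse Neuroinflammation panel. The histone chaperone gene Asf1a was not analysed here. Of the 39 genes 38 lay above background in all 23 mice, and Dnmt3b, a de novo DNA methyltransferase, did so in 1 mouse. Background was set in each mouse from its negative control probes, at their mean plus 2 SD.

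Suv39h1, Ezh1, Dot1l and Hells are given with the values of every group although the rule for named genes did not choose them, and were picked after their values were seen.

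Chromatin state is set by enzymes working in complexes. MLL and COMPASS methyltransferases mark active promoters through lysine 4 of histone H3, Polycomb complexes maintain repression through lysine 27, and acetyltransferases and deacetylases add and remove acetyl groups that open chromatin. DNA methyltransferases and the proteins that bind methylated DNA add a further layer of repression, and SWI/SNF remodellers slide or evict nucleosomes. In the brain these proteins are expressed in neurons and glia alike, and in microglia and macrophages they take part in tuning inflammatory genes after LPS.

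The mice were 12 wk old at harvest and, as labelled, WT animals of strain B6FVB from CamKIIα-TTA/tetO-APP102 x FVB. Untreated mice (n = 8, 6 males and 2 females) had neither dox nor LPS, and Dox mice (n = 4, 1 male and 3 females) were fed dox chow at 100 mg/kg starting on postnatal day 3, which was withdrawn at 6 wk of age and followed by a 6 wk washout. LPS mice (n = 5, 3 males and 2 females) and Dox+LPS mice (n = 6, 3 males and 3 females) of the same 2 feeding schemes were given an intraperitoneal dose of 2 mg/kg LPS 18 h before the cortex was taken. The study's methods state that the control mice received saline. Labels give no cage or litter, so p values measure the spread between these mice only, and 3 of the 8 Untreated mice carry mouse numbers of a different series.

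Panel counts ranged from 645971 to 804471 per mouse, and the chromatin genes made up 3.65% to 4.07% of them. Headers of the count columns carry Baylor 1 for all LPS-injected mice and Baylor 2 for all saline-injected mice, and do not say what the number stands for. An effect of a batch of this number cannot be told apart from that of LPS. Dox+LPS replicate 1 stood apart from its group, with an SD of its deviations from the group means of 0.199 on the log2 scale over the chromatin genes, against 0.0747 to 0.157 in the other mice. Markers of other cells also moved with LPS in this bulk tissue, where fewer cells of a type and less RNA per cell cannot be told apart. Of 10 microglia markers, 6 were called lower in dox-untreated against 7 in dox-treated mice, and their summed normalized counts were 4500 to 5223 in Untreated, 4901 to 4973 in Dox, 2915 to 3927 in LPS and 2086 to 3547 in Dox+LPS mice. Of 10 oligodendrocyte markers, 7 were called lower in each condition, with sums of 29377 to 37049, 32491 to 34657, 21312 to 24440 and 21964 to 26546 in the same order of groups. Sums of the 11 neuron markers were 57248 to 64695, 55720 to 63847, 52202 to 57051 and 49014 to 52710, with 0 and 1 called lower. The T cell markers Cd3d, Cd3e, Cd3g, Cd8a and Cd8b1 and the B cell markers Ms4a1 and Blk lay under background in every mouse. The part of these cell types in the changes given here was not tested.

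Under upper quartile scaling many chromatin genes were lower after LPS by a small amount and few were higher, a balance that moved with the scaling down to 3 lower genes with positive control probes. In dox-untreated mice 23 of 39 chromatin genes were lower after LPS at an adjusted p under 0.05, where 29.1% of all panel genes were, and 2 were higher, where 22.9% of all panel genes were. Of the 770 panel genes 572 lay above background in all mice, against 38 of the 39 chromatin genes. Panel shares of every kind, here and below, thus include genes near background, and shares over the 572 alone are not given here. Hdac6, a mainly cytoplasmic deacetylase of tubulin, and Arid1a, a DNA-binding subunit of SWI/SNF, had the largest ratios of change to error, with falls of 23.7% and 21.6%. No chromatin gene met the panel threshold for a DEG, an adjusted p under 0.05 together with an absolute log2 fold change above 0.5, which 22.7% of all panel genes met and 5.97% met as lower genes. By edgeR's quasi-likelihood test this count was 0 of 39, with 27 of 39 at an unadjusted p under 0.05 (57.1% of all genes), and DESeq2 called 0 as well. Taken as bounds, the 95% intervals of 34 of the 39 log2 fold changes lay wholly between -0.5 and 0.5, which held for 51.8% of all panel genes. The 5 genes whose intervals crossed these limits were Hdac6, Dnmt3a, Dot1l, Kmt2a and Dnmt3b, and the widest bound was 0.72. The median log2 fold change of the 38 chromatin genes above background was -0.16, against -0.04 over all 770 genes, and 33 of the 38 lay below 0, as did 54.9% of all genes. In either direction 25 of 39 had an adjusted p under 0.05 (51.9% of all genes).

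Dox-treated mice gave a like picture with partly other genes. After LPS 21 of 39 chromatin genes were lower at an adjusted p under 0.05 (31.3% of all genes) and 0 were higher by edgeR's quasi-likelihood test (24.7% of all genes), while DESeq2 gave 1 higher, and 24 had an unadjusted p under 0.05 in either direction (60.3% of all genes). As DEGs 0 of 39 were counted by edgeR and by DESeq2, where edgeR called 26.5% of all genes, 7.01% of them as lower. Intervals of 35 of 39 stayed between -0.5 and 0.5 (47.5% of all genes), the exceptions being Dnmt3a, Dot1l, Hells and Dnmt3b, and the widest bound was 0.81. The median over the 38 genes was -0.18, against -0.07 over all genes, and 34 of the 38 lay below 0 (58.1% of all genes).

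LPS against Untreated and Dox+LPS against Dox share no mice, although both set mice of header number 1 against mice of header number 2. Both came from the same fit, with the spread estimated over all 23 mice, so passing was not independent between them. The upper quartile also lowered LPS-injected mice relative to the others in both. Under the upper quartile the 2 lists of lower genes shared 18 members, which were 78.3% of the 23 without dox and 85.7% of the 21 with dox. These were Arid1a, Ash2l, Bmi1, Brd3, Dnmt1, Dnmt3a, Dot1l, Hdac4, Hdac6, Hira, Jarid2, Kat2a, Kdm1a, Ncor1, Setd1a, Smarca4, Suz12 and Tet1. No gene passed in opposite directions. The sign of the log2 fold change was the same for 35 of 38 genes, the others being Hells, Sin3a and Suv39h2, and across these 38 genes Pearson's r was 0.70 and Spearman's rho 0.65. Shared lists and equal signs over all panel genes are not given here, so this agreement is not set against that of the panel. Hdac6 alone passed in both conditions under all 6 scalings.

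**Figure D1:**
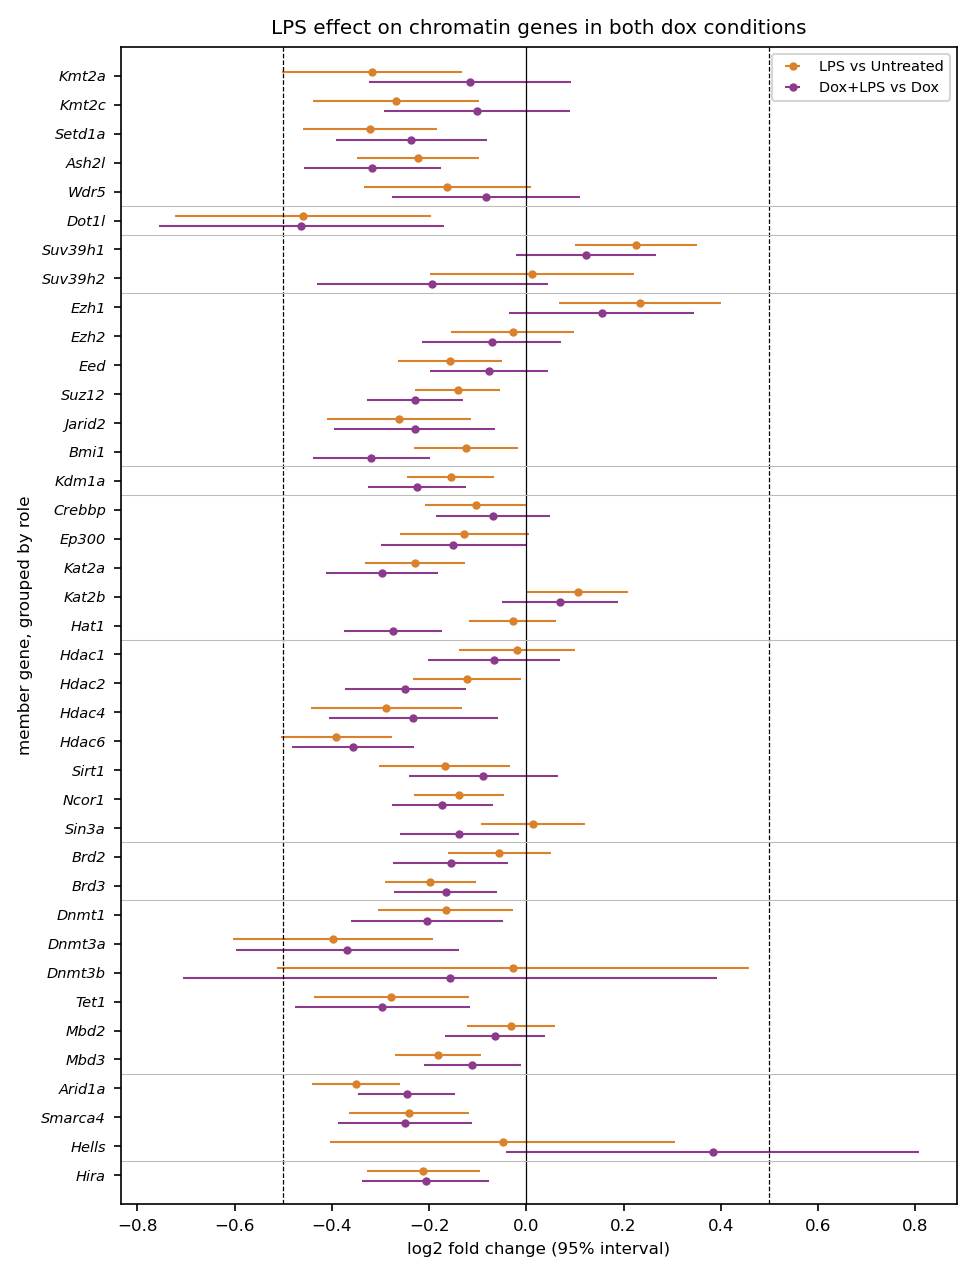
Log2 fold change after LPS (x axis, points, with 95% intervals as bars) for the 39 chromatin genes grouped by role on the y axis, LPS against Untreated in orange and Dox+LPS against Dox in purple, with dashed lines at -0.5 and 0.5. Most points lie between the left dashed line and 0, and the interval of Dnmt3b, near background, is among the widest.

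The deacetylase and corepressor group had 7 measured members, of which 4 were lower in each condition (29.1% and 31.3% of all panel genes). Its median log2 fold changes were -0.14 in dox-untreated against -0.17 in dox-treated mice. Whether this or any other role differed from the panel was not tested. Normalized counts of Hdac6, counts scaled by the upper quartile to the mean library, were 319.5 to 413 in Untreated mice (median 363), and 269, 277, 279, 261 and 297 in the 5 LPS mice. In Dox mice they were 363, 416, 387 and 394, and in Dox+LPS mice 290.2 to 329.6 (median 301). Whether groups overlapped is stated on this scale. No LPS-injected mouse reached the lowest saline-injected mouse of its own dox condition. Untreated mice averaged 363 ± 26.3 (SD, n = 8) and LPS mice 277 ± 13.4 (SD, n = 5), for a log2 fold change of -0.39 (standard error, SE, of 0.055, adjusted p = 2.11e-06 by edgeR), while Dox mice averaged 390.0 ± 21.9 (SD, n = 4) and Dox+LPS mice 305 ± 13.9 (SD, n = 6), for a log2 fold change of -0.36 (SE 0.061, adjusted p = 2.73e-05). Hdac4, a class IIa deacetylase that shuttles out of the nucleus with neuronal activity, had log2 fold changes of -0.29 and -0.23 (adjusted p = 0.00238 and 0.0213 by edgeR). Ncor1, the scaffold of a nuclear receptor corepressor complex, was lower by less, with -0.14 and -0.17 (adjusted p = 0.0118 and 0.0055). Sirt1, an NAD-dependent deacetylase, passed in dox-untreated mice (-0.17, adjusted p = 0.034) and Hdac2, a class I deacetylase of synaptic genes, in dox-treated mice (-0.25, adjusted p = 0.00117). Without the 3 Untreated mice of the different number series, Sirt1 had -0.08 and Ncor1 -0.10 and neither passed (adjusted p = 0.268 and 0.0643). Sirt1 was also lost without Untreated replicate 4, 6 or 7 or LPS replicate 1, 4 or 5 (adjusted p of 0.0525 to 0.0860), and Hdac4 in dox-treated mice without Dox replicate 2 or Dox+LPS replicate 5 (adjusted p = 0.0931 and 0.0541). Hdac1, the closest relative of Hdac2, had -0.02 and -0.07 and did not pass, nor did the corepressor scaffold gene Sin3a with 0.01 and -0.14.

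The 300 bases around the annotated start of Hdac6 are shown because this gene passed in both conditions under every scaling tried. They cover 250 bases before and 50 bases after the most upstream listed start, at chrX:7947840-7948139 on the minus strand of GRCm38.p6 as RefSeq gives it. Capitals mark the 20 CpG sites, and the GC content is 62.0%.
Hdac6: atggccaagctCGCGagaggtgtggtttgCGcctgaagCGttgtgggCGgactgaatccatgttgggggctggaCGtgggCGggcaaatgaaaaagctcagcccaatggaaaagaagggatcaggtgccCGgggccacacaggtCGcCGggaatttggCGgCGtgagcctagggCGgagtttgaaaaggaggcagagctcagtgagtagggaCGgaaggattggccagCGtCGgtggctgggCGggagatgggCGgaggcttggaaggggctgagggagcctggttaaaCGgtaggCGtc

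Of the 3 remodeller genes, Arid1a and Smarca4 were lower in both conditions and Hells passed in neither. Arid1a had 843 to 976 normalized counts in Untreated mice (median 882) and 717, 669.5, 766, 670.0 and 693 in LPS mice. Dox mice had 859.8, 829.6, 838 and 862, and Dox+LPS mice 671 to 757 (median 713). The groups did not overlap in either condition. Arid1a fell from a mean of 896 ± 47.7 to 703 ± 40.1, a log2 fold change of -0.35 (SE 0.043, adjusted p = 3.3e-07 by edgeR), and from 847 ± 16.2 to 714 ± 31.3, a log2 fold change of -0.25 (SE 0.049, adjusted p = 0.000145). Smarca4, the ATPase of the same complex, had 1690.1 to 1908 in Untreated mice (median 1762) and 1447, 1651, 1579, 1506 and 1363 in LPS mice. In Dox mice it had 1721, 1749, 1724 and 1671, and in Dox+LPS mice 1126 to 1545 (median 1497). These groups were also apart, and the log2 fold changes were -0.24 (SE 0.060, adjusted p = 0.00153) and -0.25 (SE 0.067, adjusted p = 0.0029). Hells, a helicase needed for DNA methylation in dividing cells, was near background, at 38.2 to 74.3 in Untreated, 32.0 to 53.5 in Dox, 41.8 to 72.2 in LPS and 42.1 to 70.7 in Dox+LPS mice. Its interval in dox-treated mice, -0.04 to 0.81 around 0.38, reached beyond 0.5 and did not pass (adjusted p = 0.119).

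Among the 5 MLL and COMPASS genes, 4 were lower in dox-untreated against 2 in dox-treated mice (29.1% and 31.3% of all panel genes). Their medians were -0.27 and -0.12. Setd1a, a catalytic subunit of COMPASS, had 473 to 578 normalized counts in Untreated mice (median 510.1) and 425, 434, 414, 392 and 419.8 in LPS mice. Dox mice had 459.9, 566, 501 and 438, and Dox+LPS mice 389 to 498 (median 407). The dox-untreated groups were apart, whereas the dox-treated groups overlapped. Log2 fold changes were -0.32 (SE 0.067, adjusted p = 0.000297 by edgeR) and -0.24 (adjusted p = 0.00976), and the call in dox-treated mice was lost without Dox replicate 2 (-0.16, adjusted p = 0.0824). Ash2l, a shared core subunit of these complexes, had 721 to 807 in Untreated mice (median 759.5), 632, 696, 688, 604 and 623 in LPS mice, 698, 777, 782 and 698 in Dox mice and 477 to 658 in Dox+LPS mice (median 606). It was lower in every LPS-injected mouse than in any saline-injected mouse of its dox condition, with log2 fold changes of -0.22 (SE 0.061, adjusted p = 0.00356) and -0.32 (SE 0.068, adjusted p = 0.000358). Kmt2a and Kmt2c, methyltransferases of the MLL family, passed in dox-untreated mice with -0.32 and -0.27 (adjusted p = 0.00447 and 0.00853). In dox-treated mice their log2 fold changes were -0.12 and -0.10 (adjusted p = 0.344 and 0.37), and the difference between the conditions did not pass for any chromatin gene. Without the 3 Untreated mice of the different number series the log2 fold change of Kmt2a was -0.16 (adjusted p = 0.0327), and that of Kmt2c was -0.14 and did not pass (adjusted p = 0.109). The core subunit gene Wdr5 had -0.16 and -0.08 and passed in neither.

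Dot1l, the methyltransferase of lysine 79 of histone H3, had the largest fitted decrease, 27.3% in dox-untreated mice, with a wide interval. It had 116 to 169.8 normalized counts in Untreated mice (median 150.1) and 113, 101, 99.4, 90.8 and 132 in LPS mice, so that the groups overlapped. Dox mice had 116, 155, 173 and 116, and Dox+LPS mice 74.7 to 119 (median 103). The log2 fold change was -0.46 in each condition, with intervals of -0.72 to -0.20 and -0.76 to -0.17 (adjusted p = 0.00394 and 0.00798 by edgeR). Without Dox replicate 3 it was -0.34 in dox-treated mice and did not pass (adjusted p = 0.0583). Kdm1a, a demethylase of lysine 4, had 1179 to 1362 in Untreated mice (median 1255) and 1107, 1160.5, 1222, 1091 and 1088 in LPS mice, which overlapped. In Dox mice it had 1268, 1276, 1308 and 1378, and in Dox+LPS mice 1071 to 1219 (median 1113), with no overlap. Its falls of 10.2% and 14.4% passed in both conditions (log2 fold changes -0.16 and -0.22, adjusted p = 0.0041 and 0.000378).

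The 2 genes that were higher in dox-untreated mice, Suv39h1 and Ezh1, both encode methyltransferases of repressive histone marks. Suv39h1, which methylates lysine 9 of histone H3 in heterochromatin, had 384 to 509 normalized counts in Untreated mice (median 446) and 538, 486, 496, 499 and 558 in LPS mice. Dox mice had 432, 459.6, 468 and 440.2, and Dox+LPS mice 460.3 to 554 (median 476). Its log2 fold change was 0.22 in dox-untreated mice (SE 0.061, adjusted p = 0.00332 by edgeR), with overlapping groups, and 0.12 in dox-treated mice (adjusted p = 0.141). Suv39h2, its relative, had 0.01 and -0.19 and did not pass. Ezh1, a catalytic subunit of Polycomb repressive complex 2 that persists in nondividing cells, had 218 to 266 in Untreated mice (median 232) and 295, 252, 262, 289 and 297 in LPS mice. Dox mice had 254, 282, 238 and 230.2, and Dox+LPS mice 227 to 328 (median 274). Ezh1 was higher by 17.6% in dox-untreated mice (log2 fold change 0.23, SE 0.081, adjusted p = 0.0173), a call that was lost without LPS replicate 5 (0.21, adjusted p = 0.0522), and in dox-treated mice the log2 fold change of 0.15 did not pass (adjusted p = 0.158).

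Other Polycomb genes went the opposite way or did not pass. Of the 6 measured, 4 were lower and Ezh1 higher in dox-untreated mice, and 3 were lower in dox-treated mice. Over all panel genes 29.1% were lower and 22.9% higher in dox-untreated mice, and 31.3% were lower in dox-treated mice. Bmi1, a core subunit of Polycomb repressive complex 1, had 418 to 496 normalized counts in Untreated mice (median 442) and 397, 449, 427, 393 and 393 in LPS mice, an overlap. In Dox mice it had 481, 496, 435 and 499.9, and in Dox+LPS mice 368 to 410.4 (median 378), with no overlap. The log2 fold change was -0.12 in dox-untreated mice (adjusted p = 0.046 by edgeR) and -0.32 in dox-treated mice (SE 0.058, adjusted p = 5.67e-05). The smaller change did not pass without Untreated replicate 2, 4, 6, 7 or 8, LPS replicate 1, 4 or 5, Dox replicate 1 or 2 or Dox+LPS replicate 2, 3 or 5 (adjusted p of at most 0.124) or without the 3 Untreated mice of the different number series (adjusted p = 0.160). Suz12, a scaffold of Polycomb repressive complex 2, had 1115 to 1242 in Untreated mice (median 1178), 1044, 1030.4, 1154, 1093 and 1031 in LPS mice, 1239, 1224, 1251 and 1280.2 in Dox mice and 961 to 1169 in Dox+LPS mice (median 1062). The groups of Suz12 were apart in dox-treated mice and overlapped in dox-untreated mice, with log2 fold changes of -0.23 (adjusted p = 0.000271) and -0.14 (adjusted p = 0.00749). Jarid2, an accessory subunit that guides the complex to its targets, was lower in both conditions (-0.26 and -0.23, adjusted p = 0.00371 and 0.0182), and Eed, which reads the methylated product, in dox-untreated mice (-0.16, adjusted p = 0.0138). Jarid2 was lost in dox-treated mice without Dox replicate 2 (adjusted p = 0.0511), and Eed without LPS replicate 5 (adjusted p = 0.0528) or without the same 3 Untreated mice (adjusted p = 0.0617), without which Jarid2 had -0.17 (adjusted p = 0.0301). Ezh2, the catalytic subunit typical of dividing cells, had -0.03 and -0.07 and did not pass.

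Acetyltransferases were measured for 5 genes, of which 1 was lower in dox-untreated against 2 in dox-treated mice. These counts were near the shares of all panel genes, 29.1% and 31.3%. Kat2a, the Gcn5 acetyltransferase of the SAGA complex, had 944 to 1056 normalized counts in Untreated mice (median 1003) and 852, 826, 945, 784 and 841 in LPS mice. Dox mice had 1018, 1130.3, 1011 and 927, and Dox+LPS mice 773 to 894 (median 833). The dox-treated groups were apart, and in dox-untreated mice LPS replicate 3, at 945, overlapped the lowest Untreated mouse. The fold changes of -0.23 (SE 0.050, adjusted p = 0.000459 by edgeR) and -0.30 (SE 0.056, adjusted p = 8.21e-05) on the log2 scale passed in both conditions. Hat1, which acetylates new histone H4 before it is assembled, had 513 to 611 in Untreated mice (median 579) and 568, 566, 541, 541 and 567 in LPS mice, a log2 fold change of -0.03 (interval -0.12 to 0.06, adjusted p = 0.603). In Dox mice it had 632, 636, 610.4 and 601, and in Dox+LPS mice 493 to 531 (median 509), a log2 fold change of -0.27 (SE 0.049, adjusted p = 4.37e-05). Every Dox+LPS mouse thus lay below every Dox mouse, whereas LPS mice lay within the Untreated range. Crebbp and Ep300, the coactivators CBP and p300, had -0.10 and -0.13 in dox-untreated and -0.07 and -0.15 in dox-treated mice and did not pass.

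Among the 39 genes Brd2 and Brd3 encode BET proteins, readers of acetylated histones. Brd3 was lower in both conditions and Brd2 in dox-treated mice alone by the threshold (-0.06 and -0.16, adjusted p = 0.387 and 0.0245 by edgeR). Brd3 had 613 to 661 normalized counts in Untreated mice (median 639), 505, 538, 642, 552 and 543 in LPS mice, 637, 641, 638 and 650.2 in Dox mice and 537 to 606 in Dox+LPS mice (median 572). LPS replicate 3, at 642, was the only LPS mouse within the Untreated range, and the dox-treated groups were apart. Brd2 did not pass without Dox replicate 4 or Dox+LPS replicate 2 or 3 (adjusted p of 0.0613 to 0.0984). For Brd3, log2 fold changes were -0.20 (SE 0.046, adjusted p = 0.000783) and -0.17 (adjusted p = 0.00798). Hira, a chaperone that deposits the replication-independent histone H3.3, had -0.21 in each condition (adjusted p = 0.00289 and 0.00778).

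In the DNA methylation group, 4 of 6 genes were lower in dox-untreated against 3 in dox-treated mice (29.1% and 31.3% of all panel genes). The medians were -0.17 and -0.18. Dnmt3a, the de novo methyltransferase of adult neurons, had 271 to 427 normalized counts in Untreated mice (median 323), a wide range, and 243, 246, 293, 237 and 280.2 in LPS mice. Dox mice had 339, 327, 330.4 and 303, and Dox+LPS mice 219 to 295 (median 241), so that the groups overlapped in dox-untreated mice and were apart in dox-treated mice. Dnmt3a fell by 24.1% and 22.5%, with log2 fold changes of -0.40 (SE 0.099, adjusted p = 0.00172 by edgeR) and -0.37 (SE 0.111, adjusted p = 0.00703). Mbd3, a subunit of the NuRD repressor complex, had 1061 to 1213 in Untreated mice (median 1096) and 969.6, 1028, 1038, 909.9 and 915 in LPS mice, without overlap and with a log2 fold change of -0.18 (SE 0.043, adjusted p = 0.00104). In Dox mice it had 1088, 1116, 1007 and 1029.7 and in Dox+LPS mice 940.3 to 1027 (median 975), with overlap, and the log2 fold change of -0.11 did not pass (adjusted p = 0.0528). Dnmt1, the maintenance methyltransferase, had -0.17 and -0.20 (adjusted p = 0.0418 and 0.0254), and Tet1, which oxidizes methylated cytosine, had -0.28 and -0.30 (adjusted p = 0.0041 and 0.00571). Dnmt1 did not pass in dox-untreated mice without Untreated replicate 1, 3, 5, 6 or 7 or LPS replicate 2, 4 or 5 (adjusted p of 0.0512 to 0.0957), nor in dox-treated mice without Dox replicate 1, 2 or 3 or Dox+LPS replicate 1 (adjusted p of 0.0555 to 0.0893). Without the 3 Untreated mice of the different number series, Dnmt1 had -0.15 (adjusted p = 0.119), Tet1 -0.16 (adjusted p = 0.0617) and Dnmt3a -0.26 (adjusted p = 0.0196). Mbd2, a reader of methylated DNA, had -0.03 and -0.06 and did not pass. For Dnmt3b the intervals of -0.51 to 0.46 and -0.71 to 0.39 set the only bound, since its counts lay near background.

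Over all groups 6 chromatin genes lay lower in every LPS mouse than in any Untreated mouse, namely Arid1a, Ash2l, Hdac6, Mbd3, Setd1a and Smarca4 (13.1% of all panel genes did). In dox-treated mice 15 genes did so (21.6% of all panel genes), and 0 lay wholly higher in either condition, where 13.6% and 18.6% of all genes did. These counts hold for the upper quartile. In dox-untreated mice the lower genes set apart numbered 6 with TMM, 7 with RLE, 4 with housekeeping, 3 with total and 0 with positive control scaling (4.81% to 12.1% of all genes). With total scaling Ezh1 and Kat2b lay wholly higher, where 17.3% of all genes did. In dox-treated mice the lower genes set apart numbered 13, 12, 3, 2 and 3 in the same order (10% to 17.3% of all genes). Suv39h1 lay wholly higher there under each of the 5, where 20% to 23.6% of all genes did. Hdac6 was set apart as lower in dox-treated mice under all 6 scalings, whereas Arid1a was so under the upper quartile, TMM and RLE only. The within-group SD of the chromatin genes above background was 0.068 to 0.31 on the log2 scale (median 0.10), against 0.046 to 1.92 (median 0.13) over the 572 panel genes above background in all mice. Without Dox+LPS replicate 1, which was lowest of all mice for Smarca4, 23 genes were lower and 1, Ezh1, higher in dox-treated mice, with a median of -0.19 and 0 DEGs.

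**Figure D2:**
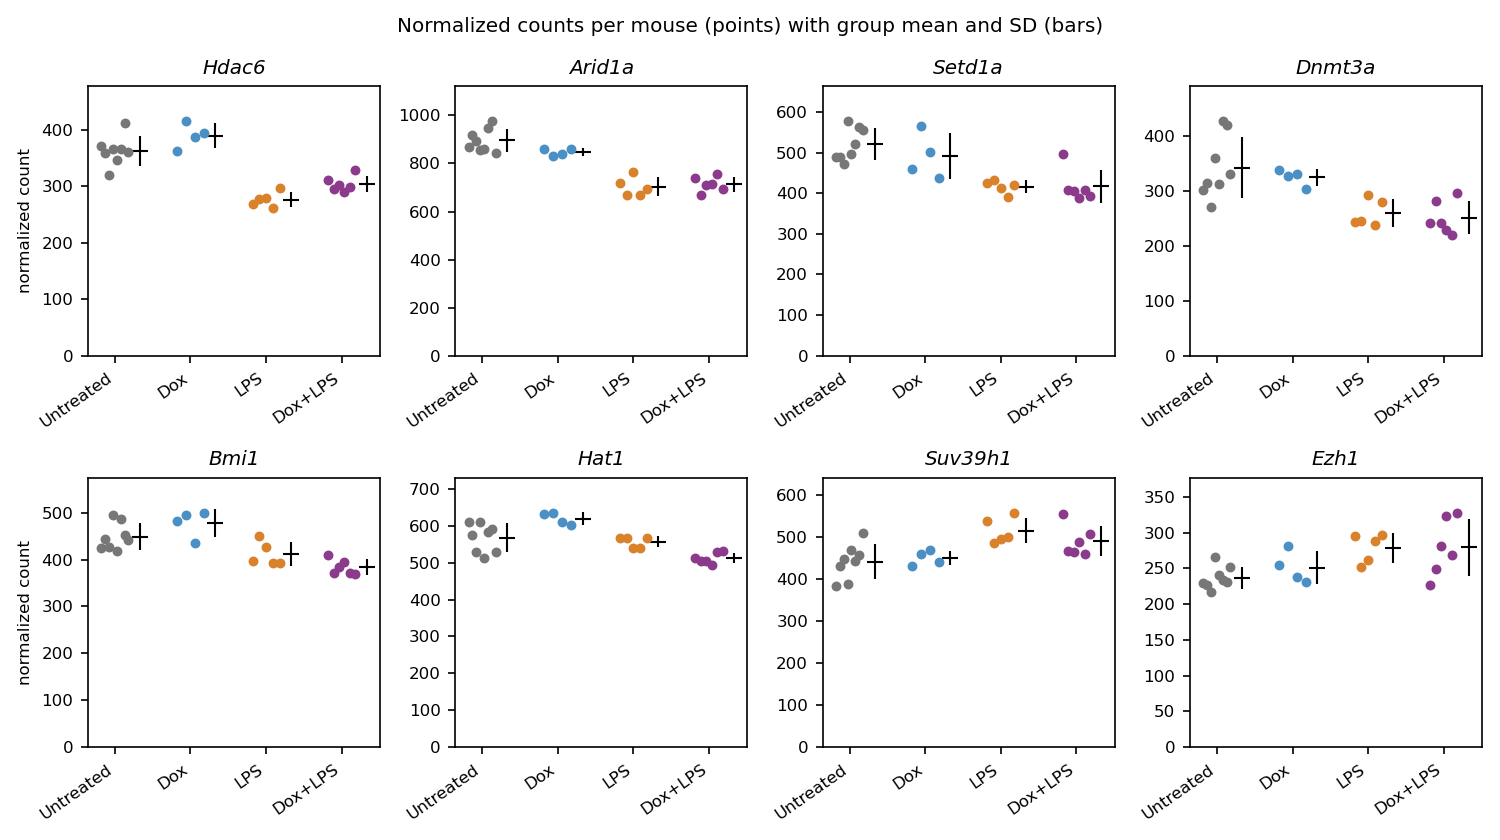
Normalized counts (y axis) of 8 chromatin genes in each mouse (points) of the 4 groups (x axis), with the mean and SD of each group. Hdac6 and Arid1a are lower in every LPS-injected mouse than in any saline-injected mouse of the same dox condition, and Hat1 is set apart in dox-treated mice. Suv39h1 and Ezh1 are higher after LPS at an adjusted p under 0.05 in dox-untreated mice only, and their values overlap in both conditions.

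How many of these small changes passed depended on the scaling, since the scalings differed among themselves by amounts of the order of the changes themselves. Under the upper quartile the mean log2 size factor was -0.04 in Untreated, -0.10 in Dox, 0.04 in LPS and 0.08 in Dox+LPS mice, so this scaling lowers LPS-injected mice relative to the others. With the total count as the scale these factors were 0.01, -0.03, -0.01 and 0.01. The median log2 fold change over all 770 genes accordingly ranged from -0.04 under the upper quartile to 0.08 in dox-untreated mice and from -0.07 to 0.07 in dox-treated mice over the 6 scalings. Relative to that median, the median of the chromatin genes lay between -0.12 and -0.11 in every scaling and both conditions. A change of scale moves all genes of a comparison by about the same amount, so this difference stays nearly the same by construction. The median over all 770 genes includes genes near background, whereas that of the chromatin genes covers only those above it.

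In dox-untreated mice the number of chromatin genes lower at an adjusted p under 0.05 was 23 with the upper quartile, 20 with RLE, 17 with TMM, 16 with housekeeping genes, 11 with the total count and 3 with positive control probes. The number higher was 2 with the upper quartile and 3 with each of the others. Over all panel genes the lower shares in dox-untreated mice were 29.1%, 26.2%, 24.9%, 20.5%, 17.3% and 10.4% in the same order, and the higher shares 22.9% to 30.3%. With positive control probes the chromatin genes counted as lower were no larger a share than the panel's. In dox-treated mice the lower genes numbered 21, 16, 15, 5, 5 and 3 in the same order, and the higher genes 0, 1, 1, 4, 4 and 0. Over all panel genes the lower shares in dox-treated mice were 31.3%, 23.8%, 23.4%, 13.9%, 14.5% and 13% and the higher shares 24.7% to 30.5%, so that the chromatin genes counted as lower were no larger a share than the panel's with housekeeping, total and positive control scaling. The log2 fold change changed sign in some scaling for 8 genes in dox-untreated against 11 in dox-treated mice, and none of these had passed under the upper quartile. Hat1 was among the 8, ranging from -0.03 to 0.09 in dox-untreated mice. Under all 6 scalings Arid1a, Hdac6 and Setd1a were lower and Ezh1 and Suv39h1 higher in dox-untreated mice, and Bmi1, Hdac6 and Kat2a were lower in dox-treated mice. Hdac6 was therefore the only gene that passed in both conditions under every scaling, with log2 fold changes of -0.39 to -0.27 (largest adjusted p = 0.0119 by edgeR) and -0.36 to -0.22 (largest adjusted p = 0.0325). Arid1a ranged from -0.35 to -0.24 in dox-untreated and from -0.25 to -0.11 in dox-treated mice, where the largest adjusted p was 0.202. Dnmt3a ranged from -0.40 to -0.29 and from -0.37 to -0.23, with largest adjusted p of 0.0678 and 0.136. Suv39h1 ranged from 0.22 to 0.34 in dox-untreated mice and from 0.12 to 0.26 in dox-treated mice, where the upper quartile gave the smallest value. The bounds depended less on the scale, with 34 to 37 and 35 to 36 of the 39 intervals between -0.5 and 0.5. Hells was the only chromatin gene to become a DEG by a change of scale, higher by 0.52 in dox-treated mice with the total count and with housekeeping genes.

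**Figure D3:**
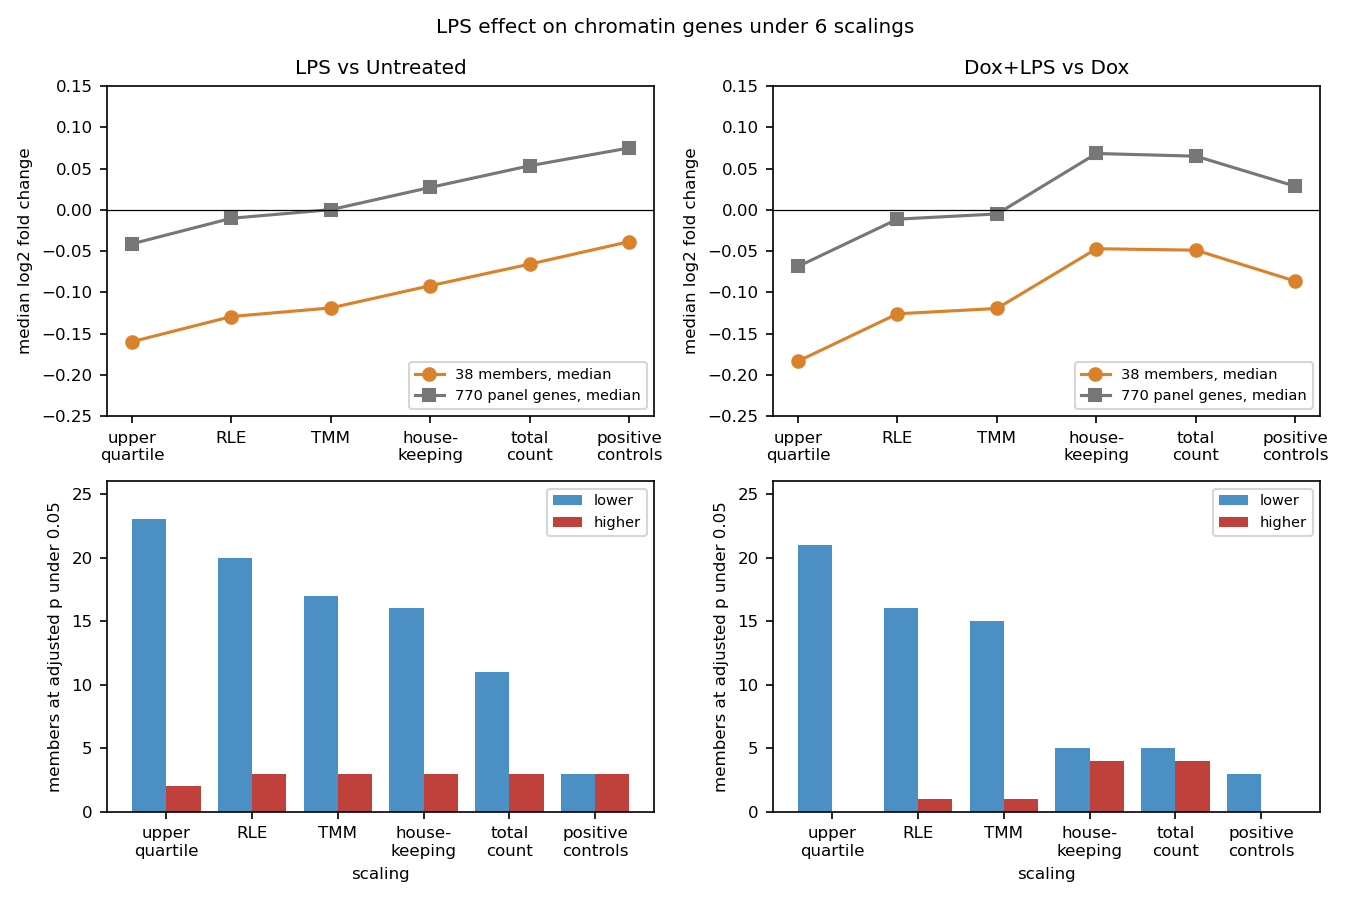
Median log2 fold change of 38 chromatin genes and of all 770 genes (top), and number of chromatin genes lower or higher at an adjusted p under 0.05 (bottom bars, from 0), under 6 scalings (x axis) for both LPS comparisons. The medians move up together from the upper quartile to the other scalings, and the lower genes drop from 23 and 21 to 3 and 3 with positive control probes.

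Ratios of paralogues within a mouse do not depend on the scale, and 11 pairs were compared in both LPS comparisons, 21 exact permutation tests in all, with Dnmt3a over Dnmt3b left untested in dox-treated mice. The ratio of Kat2a to Kat2b, both acetyltransferases that can serve in SAGA, was the one that passed. Kat2b had 392 to 451 normalized counts in Untreated mice (median 423), 462, 446, 445, 439.7 and 459 in LPS mice, 449.7, 402, 428 and 410.4 in Dox mice and 375 to 475 in Dox+LPS mice (median 450.5), and did not pass by itself (log2 fold changes 0.11 and 0.07, adjusted p = 0.0857 and 0.322 by edgeR). Under each of the other 5 scalings Kat2b passed as higher in dox-untreated mice (0.17 with housekeeping genes, adjusted p = 0.0200, and 0.22 with positive control probes, adjusted p = 0.0298), and in dox-treated mice it passed under 2. The log2 ratio of counts was 1.09 to 1.36 in Untreated mice and 0.88, 0.89, 1.09, 0.83 and 0.87 in LPS mice, with only LPS replicate 3 near the Untreated range. It was 1.25 ± 0.09 (SD, n = 8) against 0.91 ± 0.10 (SD, n = 5), a difference of -0.34 (two-sided exact permutation p = 0.000777, the smallest that 1287 regroupings can give, adjusted p = 0.0163). In Dox mice the log2 ratio was 1.18, 1.49, 1.24 and 1.17 and in Dox+LPS mice 0.79 to 1.14, a difference of -0.36 (exact permutation p = 0.00952, adjusted p = 0.05, not under the threshold). With 210 regroupings the smallest p is 0.00476, so a single pair reaches a low adjusted p here only if others do. That smallest p was found for Hdac1 over Hdac2 in dox-treated mice, whose log2 ratio was higher by 0.18 after LPS (adjusted p = 0.05), and Mbd2 over Mbd3 differed by 0.15 in dox-untreated mice (exact permutation p = 0.00855, adjusted p = 0.05). Ezh1 over Ezh2 differed by 0.26 in dox-untreated mice (adjusted p = 0.109 by exact permutation). A difference in a ratio shows unequal change of the 2 probes and not which of them moved.

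**Figure D4:**
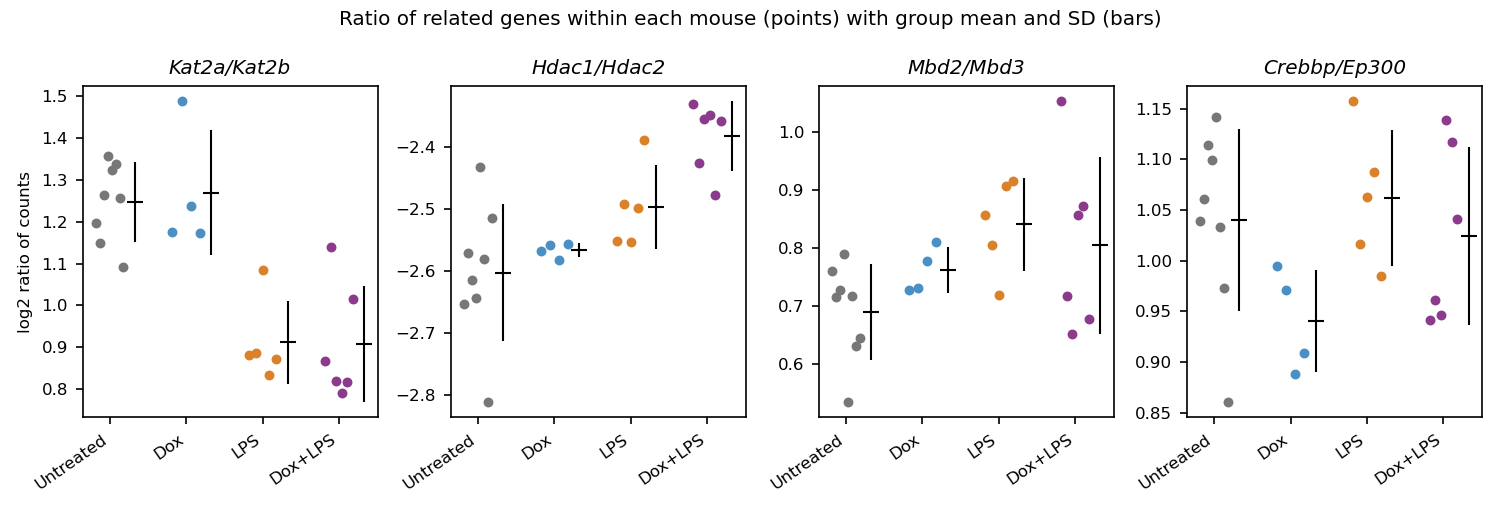
Log2 ratio of counts (y axis) of 4 paralogue pairs in each mouse (points) of the 4 groups (x axis), with the mean and SD. The ratio of Kat2a to Kat2b is 0.91 ± 0.10 in LPS against 1.25 ± 0.09 in Untreated mice, and the ratio of Crebbp to Ep300 overlaps across groups.

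Promoters of the pair are shown because the genes encode like enzymes while the ratio of their counts differed after LPS. Kat2a lies at chr11:100712418-100712717 on the minus strand and Kat2b at chr17:53566721-53567020 on the plus strand (GRCm38.p6, RefSeq, most upstream listed start), with 19 and 11 CpG sites in capitals and a GC content of 54.3% and 47.0%.
Kat2a: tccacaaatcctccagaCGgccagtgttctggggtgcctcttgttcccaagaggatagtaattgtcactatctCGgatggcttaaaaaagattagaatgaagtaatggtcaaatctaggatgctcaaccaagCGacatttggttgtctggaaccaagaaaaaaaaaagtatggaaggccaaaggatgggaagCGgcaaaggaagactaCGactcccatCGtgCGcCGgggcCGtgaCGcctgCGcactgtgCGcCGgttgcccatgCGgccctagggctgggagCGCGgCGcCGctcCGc
Kat2b: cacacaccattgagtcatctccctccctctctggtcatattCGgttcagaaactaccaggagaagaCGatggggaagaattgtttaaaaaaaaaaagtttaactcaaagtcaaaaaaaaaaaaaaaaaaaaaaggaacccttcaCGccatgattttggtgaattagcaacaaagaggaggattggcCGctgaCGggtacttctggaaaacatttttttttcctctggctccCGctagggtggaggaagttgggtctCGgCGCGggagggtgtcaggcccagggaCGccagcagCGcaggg

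As a group the chromatin genes had CpG-rich promoters. Of the 39 genes 36 had a promoter in the RefSeq table, with a median GC content of 67.3%, against 58.7% over 601 panel genes and 52.7% over 27025 promoters. CpG sites per 300 bases numbered 2 to 56 (median 31), against medians of 16 and 7. The TATA box letters TATAAA were found on either strand in 1 of the 36, Mbd3 (2.78%), in 10.6% of panel promoters and in 14.2% of all promoters. A match is a description of these windows, and the absence of the letters says nothing of sites elsewhere.

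Dox by itself moved no chromatin gene past the test. By edgeR's quasi-likelihood test 0 of 39 passed between Dox and Untreated mice (0% of all genes), and 4 had an unadjusted p under 0.05 (5.32% of all genes). Of these Hat1 was higher by 0.13 (interval 0.03 to 0.22, adjusted p = 0.811) and Hells lower by 0.52 in the fit, with an interval of -0.92 to -0.11 (adjusted p = 0.811). Kmt2a and Kmt2c, the others of the 4, were at -0.22 and -0.19 in Dox against Untreated mice (adjusted p = 0.811 for each), a comparison that shares its mice with those after LPS. For 37 of 39 genes the interval lay between -0.5 and 0.5 (72.3% of all genes), Hells and Dnmt3b being the exceptions, and the median was -0.00 against 0.01 over all genes. Between Dox+LPS and LPS mice 0 passed and 2 had an unadjusted p under 0.05 (13.2% of all genes), which were Hat1 at -0.12 (interval -0.21 to -0.02, adjusted p = 0.276) and Hdac6 at 0.14 (interval 0.02 to 0.26, adjusted p = 0.312). Intervals of 38 of 39 genes were within the limits (69.9% of all genes). Hat1 lay lower in every Dox+LPS mouse than in any LPS mouse, as did 1.04% of all panel genes, and 0 genes lay wholly higher (0.779% of all genes). Hat1 was not set apart in this way under any of the other 5 scalings. DESeq2 also called 0 in both comparisons.

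Whether LPS acted differently in dox-treated mice was tested by the interaction of LPS and dox. For Hat1, lower after LPS in dox-treated and not in dox-untreated mice, the interaction was -0.25 (interval -0.38 to -0.11, unadjusted p = 0.000983) and did not pass over all genes (adjusted p = 0.149 by edgeR). It ranged from -0.27 to -0.18 over the scalings, with a largest adjusted p of 0.757. Bmi1 had -0.19 (interval -0.35 to -0.03, adjusted p = 0.507). These 2 of 39 genes had an unadjusted p under 0.05 (8.96% of all genes), 0 passed after adjustment by edgeR, 0 were called by DESeq2, and 36 intervals were within the limits (53.9% of all genes), leaving Hells, Dnmt3b and Suv39h2. The same 4 groups give all of these comparisons, so the values for Hat1 share the Dox and Dox+LPS mice. Females and males, with group as a covariate, differed for 0 of 39 genes (0.26% of all genes were called). Dnmt3a, at 0.17 in females over males (unadjusted p = 0.0227, adjusted p = 0.583), and Brd2, at -0.08 (adjusted p = 0.644), had an unadjusted p under 0.05, as did 7.66% of all genes, and 38 of 39 intervals were within the limits (83.8%).

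**Figure D5:**
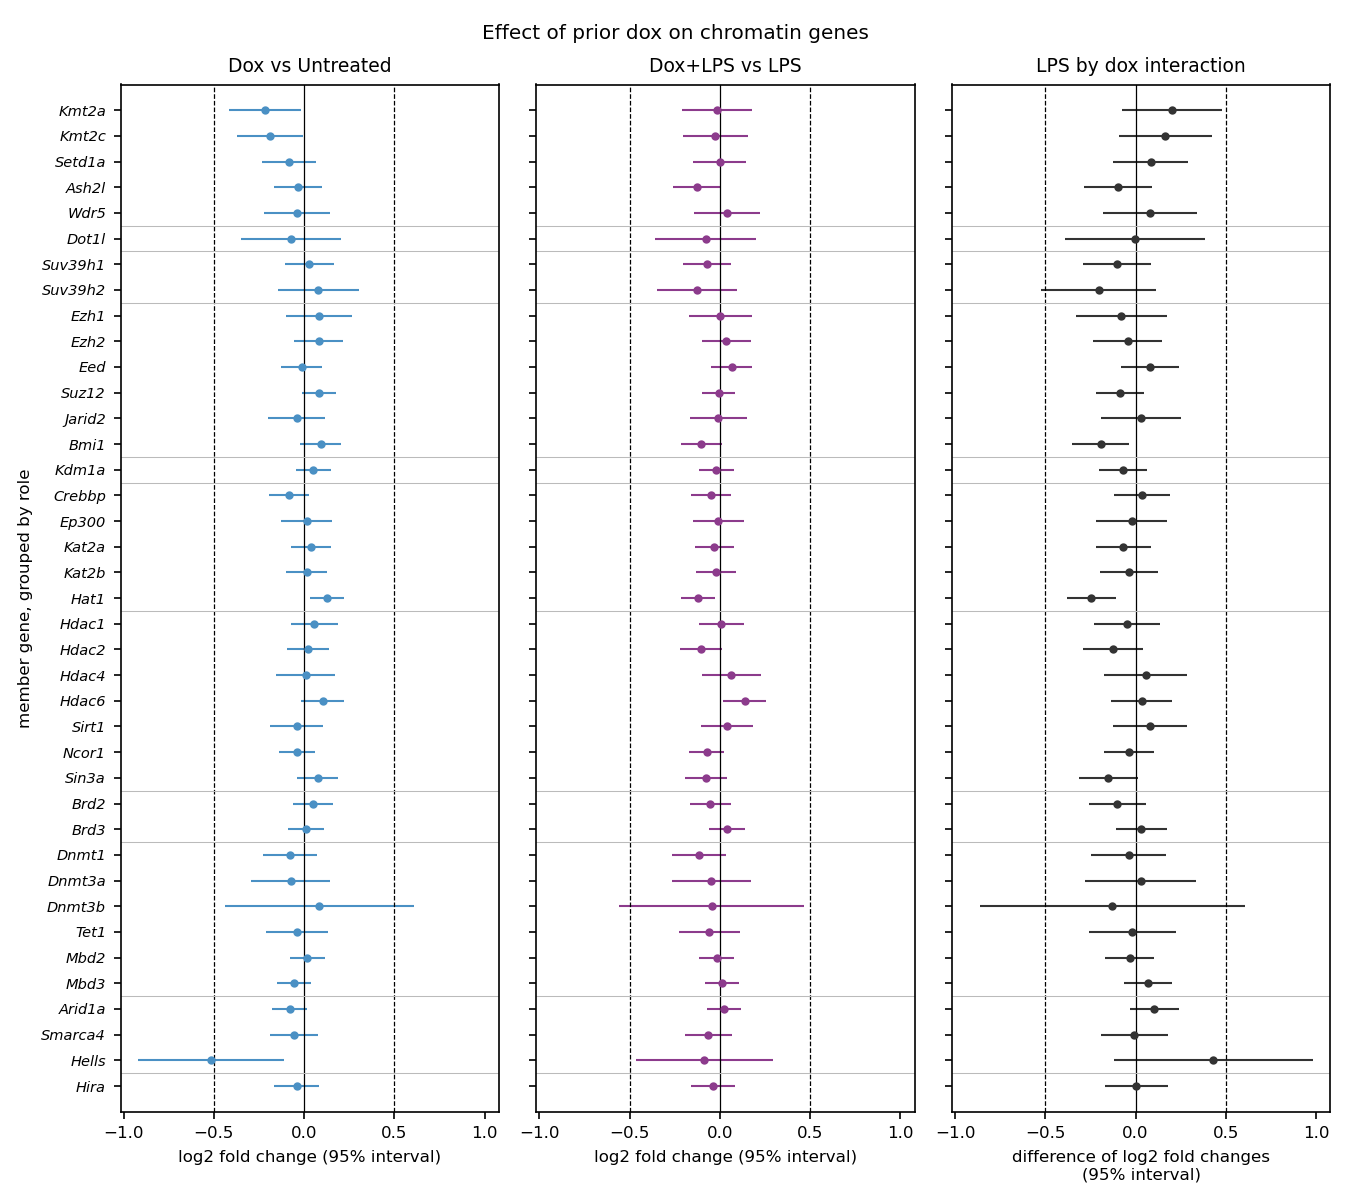
Log2 fold change (x axis, points, with 95% intervals as bars) of the chromatin genes (y axis) for Dox against Untreated, Dox+LPS against LPS and the LPS by dox interaction, with dashed lines at -0.5 and 0.5. Nearly all intervals lie between the dashed lines, and Hells and Dnmt3b, the genes nearest to background, have the widest.

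Further chromatin regulators on the panel, were taken from a list of 137, of which 25 were measured. Of these 25 genes 13 were lower in dox-untreated against 10 in dox-treated mice at an adjusted p under 0.05 (29.1% and 31.3% of all panel genes), and 0 were higher (22.9% and 24.7%). By edgeR 0 were DEGs in either condition (22.7% and 26.5% of all panel genes). Medians over all 25 were -0.19 and -0.19, including Kdm3b, above background in 0 mice, Kdm5d and Uty, in 13, and Kdm4d, in 22. These counts hold for the upper quartile, and those under the other scalings are not given here. All 10 of the dox-treated list were among the 13, which included Ehmt2, a methyltransferase of lysine 9, Setd2, a methyltransferase of lysine 36, and Smarca5, the ATPase of ISWI remodellers. By sex 2 of the 25, Kdm5d and Uty, were DEGs, lower in females (0.26% of all panel genes). Kdm5c and Kdm6a were higher in females at an adjusted p under 0.05 without reaching the fold threshold (0.26% of all panel genes were higher at this p).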

How the data were processed

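Cortical RNA was measured with nCounter probes, and the authors deposited the counts of each probe as exported, listed as estimated counts since their columns also carry decimal header entries, although every probe value is whole. The submitters' processing notes name edgeR 3.38.4, and the authors' own normalized values were not used. Of the columns in the count table, 1 matched no mouse of the series and was dropped. Groups were taken from the labels, with replicate numbers given in order of mouse number.

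After upper quartile scaling, counts of the 770 genes were tested in R 4.3.3 by edgeR 4.0.16 (quasi-likelihood), with 1 mean per group over all mice and Benjamini-Hochberg adjustment over all genes. A gene was called where its adjusted p was under 0.05 and its log2 fold change beyond 0.5 either way, and was bounded where its 95% interval lay within -0.5 to 0.5. Paralogue ratios, with a pseudocount of 1, were compared by two-sided exact permutation tests. The members, roles and lists were chosen with earlier results of these data known. Genes given in full were called in any comparison, among the 8 smallest p of either LPS comparison, the smallest p of another comparison, or in a paralogue pair that passed.

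Alternatives were 5 other scalings, DESeq2 1.42.0, edgeR's likelihood ratio test, limma-voom (limma 3.58.1), 1 or 2 RUVg factors computed from the published description of the method, a filter for genes above background in at least 4 mice, background subtraction, sex as a covariate, only the groups compared, mice left out, no fold threshold, and a pseudocount of 10. Log2 fold changes centred on the median of all genes, and overlap of groups under each scaling, were added after the data had been seen. The quasi-likelihood test was tried on simulated data with equal numbers of higher and lower genes in the LPS group. That trial used TMM, so it does not cover the upper quartile scaling of the main results. Promoters came from RefSeq (GRCm38.p6) and were matched by gene symbol. Panel counts of 645971 to 804471 per mouse and a background of 15.4 to 29.8 counts leave Dnmt3b and Hells near background. Intervals reflect the spread between mice.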

Additional observations from a re-analysis of the deposited data

Results flagged for a closer look

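Among 56 sets of values of single genes within a group, 5 held a mouse far from the others, where chance gives about 1 in 20 such sets. Dox+LPS replicate 1 gave 3 of them. Its normalized count was 1126.3 for Smarca4, against 1471 to 1545 in the other 5 mice, 1218.77 for Kdm1a, against 1071 to 1126, and 497.691 for Setd1a, against 389 to 409. For Kat2b, Dox+LPS replicate 2 had 375.213, against 438 to 475 in the others. For Mbd3, Untreated replicate 5 had 1213.46, against 1061 to 1115 in the other 7 mice. The cause of these values was not tested.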

How the results depend on the processing

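Counts of called chromatin genes in the dox comparisons, the interaction and the sex comparison were 0 under every alternative tried, and 0 results reversed. In dox-untreated mice after LPS, the lower genes numbered 11 with total scaling and 3 with positive control scaling, the higher genes 1 with 1 RUVg factor and 1 with 2 RUVg factors (Suv39h1), and the called genes 25 with no fold threshold. The median was -0.066 with total, -0.092 with housekeeping and -0.038 with positive control scaling. In dox-treated mice the higher genes numbered 1 with TMM, RLE and DESeq2 (Suv39h1) and 4 with total and with housekeeping scaling (Ezh1, Hells, Kat2b and Suv39h1). The lower genes numbered 5 with total, 5 with housekeeping and 3 with positive control scaling. Called genes numbered 1 with total and with housekeeping scaling (Hells), 1 with background subtraction (Dot1l) and 21 with no fold threshold. The median was -0.12 with TMM, -0.13 with RLE and DESeq2, -0.049 with total, -0.047 with housekeeping and -0.086 with positive control scaling. Beyond the construction of the scalings, the cause was not tested.

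With each mouse left out in turn, called genes ranged from 0 to 1 in both LPS comparisons. Dot1l was called in dox-untreated mice without Untreated replicate 3 or LPS replicate 5 and in dox-treated mice without Dox replicate 1, Dox replicate 4 or Dox+LPS replicate 6, and Hells in dox-treated mice without Dox replicate 3. Higher genes ranged from 1 (without LPS replicate 5) to 3 in dox-untreated and from 0 to 1 in dox-treated mice (Hells without Dox replicate 3 and Ezh1 without Dox+LPS replicate 1). Lower genes ranged from 19 to 24 and from 18 to 23, bounded genes from 33 to 36 and from 33 to 35, and medians from -0.18 to -0.14 and from -0.19 to -0.17. Paralogue ratios that passed ranged from 1 to 4 in dox-untreated mice, with 4 without Untreated replicate 5 or LPS replicate 3 and 2 without Untreated replicate 4. In dox-treated mice they ranged from 0 to 2, with 2 without Untreated replicate 5 or LPS replicate 3 and 1 without Untreated replicate 4 or 6, because p is adjusted over all 21 tests. The difference in the ratio of Kat2a to Kat2b in dox-untreated mice ranged from -0.38 to -0.32 (largest adjusted p = 0.0424 by exact permutation). Of the 25 and 21 genes past an adjusted p of 0.05, 20 and 15 kept their call with every mouse left out, and 4 (Arid1a, Hdac6, Setd1a and Suv39h1) and 3 (Bmi1, Hdac6 and Kat2a) under all 16 other settings. No paired analysis was possible because the mouse numbers pair no mice across groups.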
